A study of Mus musculus with 6 samples.

Results

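The genes described here encode the structural extracellular matrix: collagen and laminin chains, fibulins, and a set of matrix glycoproteins, proteoglycans and cross-linking enzymes. They were chosen by gene symbol, as all symbols of the form Col, Lama, Lamb, Lamc or Fbln with a number, together with Fn1, Tnc, Tnxb, Nid1, Nid2, Hspg2, Agrn, Fbn1, Fbn2, Eln, Sparc, Thbs1, Thbs2, Postn, Vcan, Bgn, Dcn, Lum, Lox, Loxl1, Loxl2, Efemp1 and Ecm1. Of 19057 genes with a probe on the array, 74 met this rule. By textbook role 21 of them were placed in the basement membrane, 43 in the interstitial matrix and 10 in neither. Further symbols that met it, among them Col12a1, Col20a1, Col6a3, Fbn1, Fbn2, Lama3 and Loxl2, were not analysed here.

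RNA came from immortalized proximal tubular cells of mouse strain background C56BL/6, measured on an Illumina bead array. The 3 Glis2KD samples carried an anti-Glis2 short hairpin RNA (Glis2 knockdown) and the 3 Control samples an anti-GFP one. Both were delivered by lentivirus, and cells were collected 7 days after infection. Glis2 encodes a zinc finger transcription factor whose loss causes cystic and fibrotic kidney disease, and the comparison asks which transcripts differ once it is lowered. Separate infections or cultures for the 3 samples of a group are not stated in the labels, nor is the number of hairpins. A p-value here therefore reflects sample-to-sample spread that may be purely technical. Lower Glis2, other actions of the hairpin and chance differences between infected cell populations cannot be told apart. In bulk RNA, fewer cells of a type and less RNA per cell cannot be told apart either.

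The extracellular matrix has 2 main forms. The basement membrane is a thin sheet under epithelia such as the kidney tubule: laminins, trimers of an alpha, a beta and a gamma chain, and collagen IV each form a network, and nidogen, perlecan (Hspg2) and agrin (Agrn) link them. The interstitial matrix lies between cells and holds collagen fibrils, collagen VI microfibrils, elastic fibres, fibronectin, proteoglycans and matricellular proteins, which tune cell adhesion rather than bear load. In kidney fibrosis interstitial matrix builds up around the tubules, and fibroblasts and pericytes are known as its main source.

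Glis2 itself had intensities of 169, 161 and 176 on the Glis2KD arrays, against 278, 234 and 230 on the Control arrays. The groups did not overlap, and the log2 fold change, here always Glis2KD over Control, was -0.55 ± 0.092 (SE) with limma's adjusted p = 6.32e-05. Intensities are linear and include background, which narrows the difference of so dim a probe. On the array Glis2 fell by 31.6%, while the submitters state a knockdown efficiency over 80% by an assay they do not name. The array value is that of the brighter of 2 Glis2 probes, and the other is not given here. An array value was taken as above background when it passed 139, a limit set from the most frequent intensity, and 39.8% to 39.9% of probes passed it on each array. No array stood apart: log2 intensities correlated at 0.995 between arrays of a group and at 0.980 to 0.982 between a Glis2KD and a Control array, across genes that are no independent replicates. Among proximal tubule markers, Aqp1, Pax8 and Cdh16 were above background in their mean over the 6 arrays, while Lrp2, Cubn, Slc34a1 and 5 further markers of the 11 measured were not. Precision is limited by the number of arrays.

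The promoters shown next belong to the 3 members that rose most and to the called laminin chains for which the RefSeq table (build GRCm38.p6) lists one. Other members changed more than Lama5 and Lamb2, among them Col7a1, Col8a1 and Fbln1, and their promoters are not shown. Each window holds the 250 bases before the transcription start, or before the more upstream start where 2 are listed. Capitals mark matches to 5 short motifs, searched on both strands. GGGCGG is the GC box bound by Sp1-type factors in many promoters. TGANTCA is the AP-1 site of Jun and Fos proteins, where N is any base. TATAAA is the TATA box that helps place the start of transcription. ACCACCC is the core of the sites known for Gli-type zinc finger proteins. GGAATG is the site of TEAD factors, which act with the coactivators Yap and Taz.
Tnc, chr4:64047016-64047265, minus strand: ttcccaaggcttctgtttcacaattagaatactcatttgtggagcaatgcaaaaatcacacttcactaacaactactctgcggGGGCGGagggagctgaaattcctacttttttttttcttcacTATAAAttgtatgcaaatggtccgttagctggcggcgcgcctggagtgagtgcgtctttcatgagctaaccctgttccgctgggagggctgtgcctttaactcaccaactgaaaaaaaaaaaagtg
Col6a1, chr10:76726045-76726294, minus strand: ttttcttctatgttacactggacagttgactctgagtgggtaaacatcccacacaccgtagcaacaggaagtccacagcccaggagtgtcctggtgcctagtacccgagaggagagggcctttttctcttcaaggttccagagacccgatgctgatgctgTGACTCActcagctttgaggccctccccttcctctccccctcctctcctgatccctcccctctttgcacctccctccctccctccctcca
Col5a1, chr2:27886175-27886424, plus strand: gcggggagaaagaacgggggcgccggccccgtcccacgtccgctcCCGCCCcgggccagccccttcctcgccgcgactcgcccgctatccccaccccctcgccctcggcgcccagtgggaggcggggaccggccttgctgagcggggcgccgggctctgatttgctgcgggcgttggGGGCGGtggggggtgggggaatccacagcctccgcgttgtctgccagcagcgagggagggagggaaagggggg
Lamb3, chr1:193301744-193301993, plus strand: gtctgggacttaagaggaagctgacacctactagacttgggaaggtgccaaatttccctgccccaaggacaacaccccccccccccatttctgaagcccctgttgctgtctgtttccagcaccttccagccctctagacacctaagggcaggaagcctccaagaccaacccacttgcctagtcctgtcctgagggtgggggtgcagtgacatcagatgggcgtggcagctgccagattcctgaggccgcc
Lama5, chr2:180225860-180226109, minus strand: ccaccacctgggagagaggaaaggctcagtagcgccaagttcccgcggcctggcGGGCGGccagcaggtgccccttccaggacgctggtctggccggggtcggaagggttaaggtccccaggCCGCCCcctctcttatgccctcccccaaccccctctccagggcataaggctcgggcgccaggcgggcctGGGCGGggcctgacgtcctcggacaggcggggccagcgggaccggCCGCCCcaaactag
Lamb2, chr9:108479612-108479861, plus strand: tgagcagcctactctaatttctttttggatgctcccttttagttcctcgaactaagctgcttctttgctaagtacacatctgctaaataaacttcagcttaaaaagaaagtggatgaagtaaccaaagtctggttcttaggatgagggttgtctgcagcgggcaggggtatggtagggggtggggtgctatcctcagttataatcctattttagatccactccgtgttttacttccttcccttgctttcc
In these 6 windows the searches marked a GC box and a TATA box in Tnc, an AP-1 site in Col6a1, 2 GC boxes in Col5a1 and 4 in Lama5, none overlapping another, and no match in Lamb3 and Lamb2. The GLI-type core matched none of the 6. No site particular to Glis2 was searched, so this says nothing on such sites. Among all promoters with a listed start, 3.84% of 27025 held it, as did 1 of the 54 members with a promoter in the table. GC boxes stood in 33 of these 54 members (61.1%) and in 33.0% of all promoters, AP-1 sites in 4 (7.41%) and 6.85%, TATA boxes in 8 (14.8%) and 13.0%, and TEAD sites in 3 (5.56%) and 12.6%. A match describes letters only and is neither a site of binding nor a cause.

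As a whole, the matrix genes did not shift one way. Of the 74 members, 16 passed limma's test at an adjusted p below 0.05, 9 higher and 7 lower in Glis2KD. That is 21.6%, close to the 22.5% called among all genes (11.2% higher and 11.4% lower). The median log2 fold change of the members was 0.0018, beside 0.0040 over all genes. Only 32 members were above background in their mean over 6 arrays, and 15 of these (46.9%) were called, 8 higher and 7 lower. Of all genes above background 43.6% were called, 21.5% higher and 22.1% lower. Col5a1, Fbln1, Col15a1, Bgn and Col2a1 passed that filter only through the group in which they were brighter. Tnc and Dcn had a mean of 139, at the limit, in their dimmer group. These shares are therefore a description only. All 16 called members had groups that did not overlap, as did 23 of the 74, where the share over all genes was 32.3%, and 18 of the 32 above background, where it was 52.7%. The size of change was less even: 6 members were called with at least 2-fold higher intensity in Glis2KD, a class of 0.992% of all genes and 1.99% of those above background, whereas 0 fell to 50% or less (1.21% of all genes and 2.42% of those above background). That 0 depends on the processing: Dcn, at -0.98, passed -1 in 6 alternatives, among them normexp correction (-1.26) and background subtraction (-2.66), as did Col15a1 with background subtracted (-1.74). Background-subtracted values under 16 were set to 16, so the -2.66 and -1.74 depend partly on that floor. The 6 members called with at least 2-fold higher intensity were Tnc, Col6a1, Col5a1, Lamb3, Col7a1 and Col8a1.

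**Figure D1:**
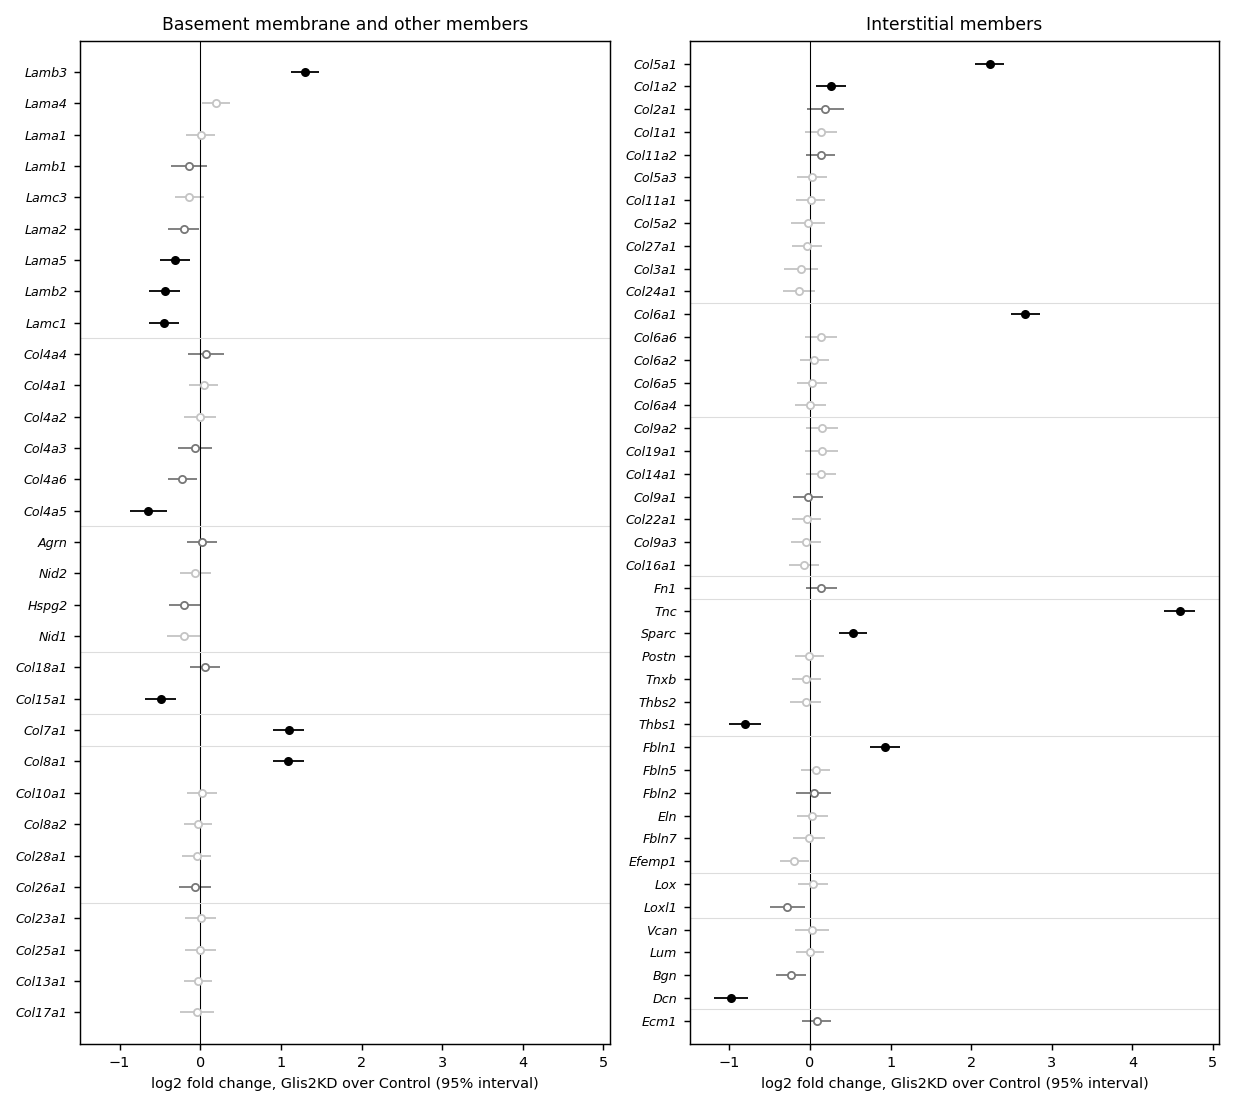
Log2 fold change, Glis2KD over Control, of each of the 74 members with its 95% interval from limma (x axis), grouped by role from top to bottom with grey lines between roles. Filled black points passed an adjusted p below 0.05, open dark grey points did not and were above background, and open light grey points were not above background in their mean; most members lie near 0, with Tnc at 4.59, Col6a1 at 2.67 and Col5a1 at 2.23 far to the right.

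Basement membrane and interstitial genes were called in shares not far from that of all genes, with different splits by direction. In the basement membrane 6 of 21 members were called, 1 higher (Lamb3) and 5 lower (Col4a5, Col15a1, Lamc1, Lamb2 and Lama5). In the interstitial group 8 of 43 were called, 6 higher (Tnc, Col6a1, Col5a1, Fbln1, Sparc and Col1a2) and 2 lower (Dcn and Thbs1). The called shares were 28.6% and 18.6%, beside 22.5% of all genes (11.2% higher and 11.4% lower). Above background, 6 of 14 (42.9%) and 7 of 15 (46.7%) were called, beside 43.6% of all such genes, and these shares are a description only. Col1a2 is not in that class, as its mean was not above background. The median log2 fold change was -0.14 over the 21 basement membrane genes and 0.024 over the 43 interstitial genes, against 0.0040 over all genes. Only 15 of the 43 interstitial genes were above background, and background narrows differences. Over genes above background the medians were -0.20 and 0.13, against -0.0058 over all such genes. Col15a1 on the basement membrane side passed that filter only through its brighter group. On the interstitial side so did Col5a1, Fbln1, Bgn and Col2a1. These medians are therefore a description only. The basement membrane median over all 21 was -0.033 without Control replicate 2 and -0.065 with the mean of a gene's probes. The difference between the sides was not tested, since genes are not replicates. With background subtracted the basement membrane count became 2 higher and 2 lower, as Col4a5 (limma's adjusted p = 0.0785), Lamb2 (0.0630) and Lama5 (0.0792) lost their calls and Lama4 gained one. The log2 fold changes of these 3 were then -0.69, -0.52 and -0.33, no smaller in size than before.

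Among the laminin chains the Lamb3 transcript rose while those of 3 chains that can form one trimer, Lama5, Lamb2 and Lamc1, fell. Lamb3 encodes a beta chain of the adhesive laminin at epithelial anchoring sites. Its intensities were 3046, 2855 and 2880.0 in Glis2KD and 1157, 1219 and 1185 in Control. Every Glis2KD array lay well above every Control array, a 2.47-fold difference with a log2 fold change of 1.30 ± 0.085 (SE) and limma's adjusted p = 2.26e-11. It rests on 1 probe.

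Lama5 encodes the main laminin alpha chain of the mature tubule. It had 1816, 1834 and 1975 in Glis2KD, against 2548, 2152 and 2283 in Control, without overlap and 19.3% lower in the ratio of geometric means. For Lamb2, a beta chain of the same laminin, the values were 653, 657 and 753 in Glis2KD and 1039, 859.8 and 907 in Control, again without overlap. Lamc1, the gamma chain shared by most laminins, had 1402, 1542 and 1405 in Glis2KD and 2163, 1877 and 1906 in Control. The log2 fold changes were -0.31 ± 0.090, -0.44 ± 0.094 and -0.45 ± 0.090 (SE), with limma's adjusted p of 0.0130, 9.05e-04 and 4.42e-04, so these drops were small beside the rise of Lamb3. The other probe of Lamc1 gave -0.39, while Lama5 and Lamb2 rest on 1 probe each. Without Control replicate 1 Lama5 lost its call, at limma's adjusted p = 0.0974, as it did after normexp correction (0.0594).

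The remaining 5 laminin chains did not pass the test. Lamb1, another beta chain that pairs with the gamma1 chain, had 390, 418 and 415 in Glis2KD and 441, 546 and 372 in Control, so the groups overlapped, and its 95% interval ran from -0.36 to 0.088 on the log2 scale. Lama2 had a log2 fold change of -0.20 (interval -0.40 to -0.010, adjusted p = 0.143 in limma). Lama1, Lama4 and Lamc3 were not above background in their means, with log2 fold changes between -0.14 and 0.19.

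**Figure D2:**
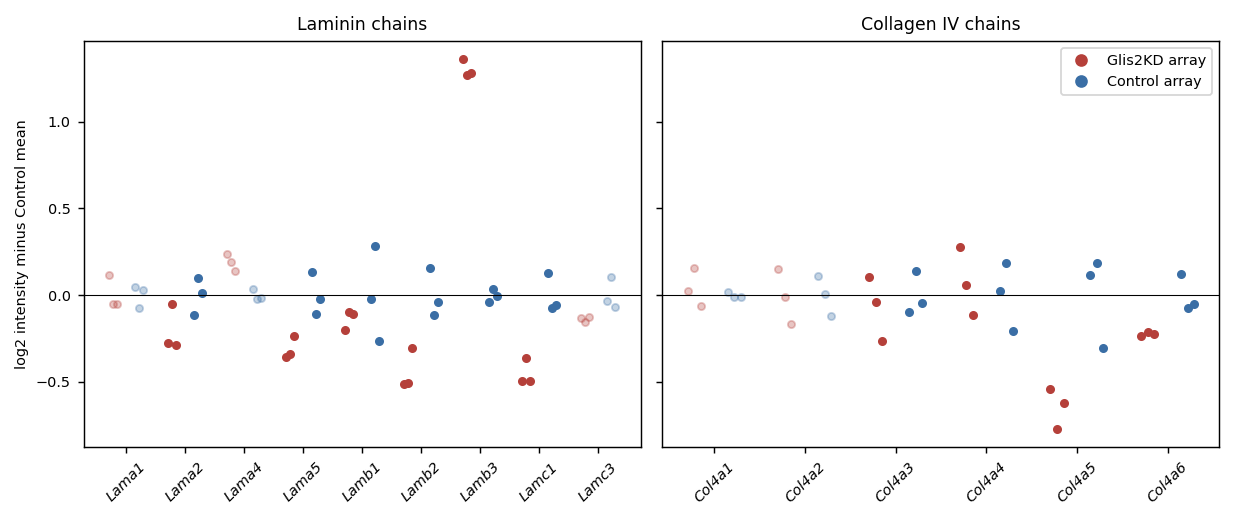
Log2 intensity of each array minus the mean of the 3 Control arrays (y axis) for the 9 laminin and 6 collagen IV chains (x axis), with Glis2KD arrays in red left of Control arrays in blue and faded points for genes not above background. Lamb3 stands above 1 on all 3 Glis2KD arrays, while Lama5, Lamb2, Lamc1 and Col4a5 lie below their Control arrays.

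Of the 6 collagen IV chains, Col4a5 fell and the others did not pass the test. Collagen IV exists as trimers of the alpha1 and alpha2 chains, of alpha3, alpha4 and alpha5, and of alpha5 and alpha6, and mutations of the alpha3 to alpha5 chains cause Alport syndrome. Col4a5 had 1482, 1267 and 1406 in Glis2KD, against 2344, 2459 and 1746 in Control, with Control replicate 3 the nearest to the knockdown values. The groups did not overlap, and the log2 fold change was -0.64 ± 0.11 (SE) with limma's adjusted p = 6.95e-05. Its other probe, less bright, gave -0.34, and on that probe 1 Glis2KD array (1238) lay within the Control values, which ran from 1188 to 1272.

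Col4a6, which lies next to Col4a5 on the X chromosome, had 287, 292 and 289 in Glis2KD and 368, 322 and 326 in Control. These groups did not overlap either, yet the change of -0.23 (interval -0.41 to -0.044) had limma's adjusted p = 0.0705. Col4a3 and Col4a4, adjacent on chromosome 1, had overlapping groups and log2 fold changes of -0.065 (interval -0.27 to 0.14) and 0.075 (interval -0.15 to 0.30). Probes of Col4a1 and Col4a2, the chains found in nearly all basement membranes, were under the background limit on all 6 arrays, so no change in them could be measured.

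The linkers of the basement membrane showed no called change. Agrin (Agrn) had 18907, 19770.4 and 21953 in Glis2KD and 19809, 19084 and 20708 in Control, with an interval from -0.16 to 0.21. Perlecan (Hspg2) had 2467, 2829.7 and 2261 in Glis2KD and 2973, 2761 and 2897 in Control, and a log2 fold change of -0.20 (interval -0.39 to -0.0040, limma's adjusted p = 0.158). Both genes had overlapping groups. Nid1 and Nid2 were not above background in their means.

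The multiplexins Col15a1 and Col18a1 are collagens with heparan or chondroitin sulfate chains that join the basement membrane to its surroundings. Col15a1 had 123, 137 and 114 in Glis2KD, all under the background limit, and 168, 194 and 164 in Control. It was at least 1.26-fold lower (limma's adjusted p = 2.92e-04), a bound in which the limit replaces the dim arrays. This fall rests on 1 probe. Col18a1, the source of endostatin, had a log2 fold change of 0.058 with an interval from -0.12 to 0.24 on its brightest probe. Its probes disagreed: a second one, also well above background, had 1288, 1379 and 1421 in Glis2KD and 1026, 950.2 and 938 in Control without overlap, at 0.49 with limma's adjusted p = 1.33e-04 over all probes. A dimmer one gave 0.036, and the mean over all 3 was 0.19 (limma's adjusted p = 0.0370), so no single direction is given for this gene.

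Col7a1 and Col8a1 belong to neither side and both rose. Col7a1 builds the anchoring fibrils that tie basement membrane to stroma, chiefly in skin, and had 2249, 2329 and 2209.6 in Glis2KD against 1195, 1024 and 965 in Control. Every Glis2KD array was clearly higher, with a log2 fold change of 1.10 ± 0.092 (SE) and limma's adjusted p = 2.15e-09. Col8a1, a short-chain collagen of vessel walls and of the corneal Descemet membrane, had 4112, 4569.6 and 4842 in Glis2KD and 1973, 2143 and 2213 in Control. Its log2 fold change was 1.09 ± 0.091 (SE), with limma's adjusted p = 1.65e-09. Other probes of both genes rose as well, that of Col7a1 by 0.44 and that of Col8a1 by 2.21 on the log2 scale. The transmembrane collagens Col13a1, Col17a1, Col23a1 and Col25a1 were not above background in their means, and 0 of the 4 were called.

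The largest change among the members was that of tenascin C. Tnc encodes a matricellular glycoprotein that is scarce in most adult tissue and appears in development, wound repair and fibrosis. It had 3780.0, 3166 and 3122 in Glis2KD, against 134, 148 and 136 in Control, where 1 of the 3 arrays passed the background limit. The log2 fold change was 4.59 ± 0.093 (SE), with limma's adjusted p = 1.18e-20. Since the Control mean, 139, sat at the limit, the size of this difference depends on how background is treated, and with background subtracted it became 7.03. Of its 6 other probes, 1 was of similar brightness and gave 4.21, and the rest, with means of 118 to 153 over the arrays, gave 0.15 to 0.69, so the mean over all 7 probes gave 1.50.

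Sparc and Thbs1, which belong to the same class, went opposite ways. Sparc, a collagen-binding protein, had 5056, 4859 and 5098 in Glis2KD and 3330.1, 3588 and 3434 in Control, without overlap, and rose by 0.54 ± 0.085 (SE) on the log2 scale (limma's adjusted p = 2.81e-05). A second probe gave 0.60 and a dimmer one 0.029. Thbs1, thrombospondin 1, which can activate latent TGF-beta, had 803, 855 and 707 in Glis2KD and 1504, 1251 and 1374 in Control. It fell by 0.80 ± 0.096 (SE) on the log2 scale, to 42.7% below Control, with limma's adjusted p = 5.37e-07. This fall rests on 1 probe. Thbs2, Postn and Tnxb were not above background in their means and were not called.

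Of the fibrillar collagens, Col5a1 rose. Collagen V starts and limits the growth of collagen I fibrils, and Col5a1 encodes its alpha1 chain. It had 519, 533 and 527 in Glis2KD and 121, 107 and 109 in Control, all 3 Control arrays under the background limit. The gene was therefore at least 3.80-fold higher, with limma's adjusted p = 1.51e-15, and rests on 1 probe. Its partner genes Col5a2 and Col5a3 were not above background in their means.

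Collagen I and collagen III, the bulk of scar matrix, were at or near background in both groups. Col1a1 had 119.8, 117 and 142 in Glis2KD and 105, 114 and 125 in Control, and Col3a1 was under the limit on all 6 arrays. Col1a2, measured by 1 probe, had 129, 141 and 134 in Glis2KD and 103, 112 and 122 in Control. It passed the test (limma's adjusted p = 0.0349) although a single array exceeded the limit, so no fold is given, and the call was lost in 6 of the 14 alternatives that measured it. Those 6 were the offset of 50 (limma's adjusted p = 0.0610), background subtraction (0.446) and leaving out Glis2KD replicate 2 (0.138) or 3 (0.0781) or Control replicate 1 (0.184) or 2 (0.0795). The 7 fibril-associated collagens had log2 fold changes between -0.074 and 0.15, and 0 were called.

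Collagen VI forms beaded microfibrils around cells from an alpha1, an alpha2 and a further chain. Col6a1 had 1608, 1626 and 1643 in Glis2KD, against 274, 241 and 252 in Control, a 6.37-fold difference without overlap. The log2 fold change was 2.67 ± 0.087 (SE), with limma's adjusted p = 4.97e-17, and a second bright probe gave 2.57. The remaining probe, close to background with a mean of 121 over the arrays, gave 0.14 (limma's adjusted p = 0.327), so the mean over the 3 probes was 1.79. Col6a2, its direct neighbour on chromosome 10 and the gene of its obligate partner chain, had 126, 139 and 126 in Glis2KD and 119, 126 and 130.3 in Control. That gene was close to background throughout, with a log2 fold change of 0.054. Col6a4, Col6a5 and Col6a6 were not above background in their means.

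**Figure D3:**
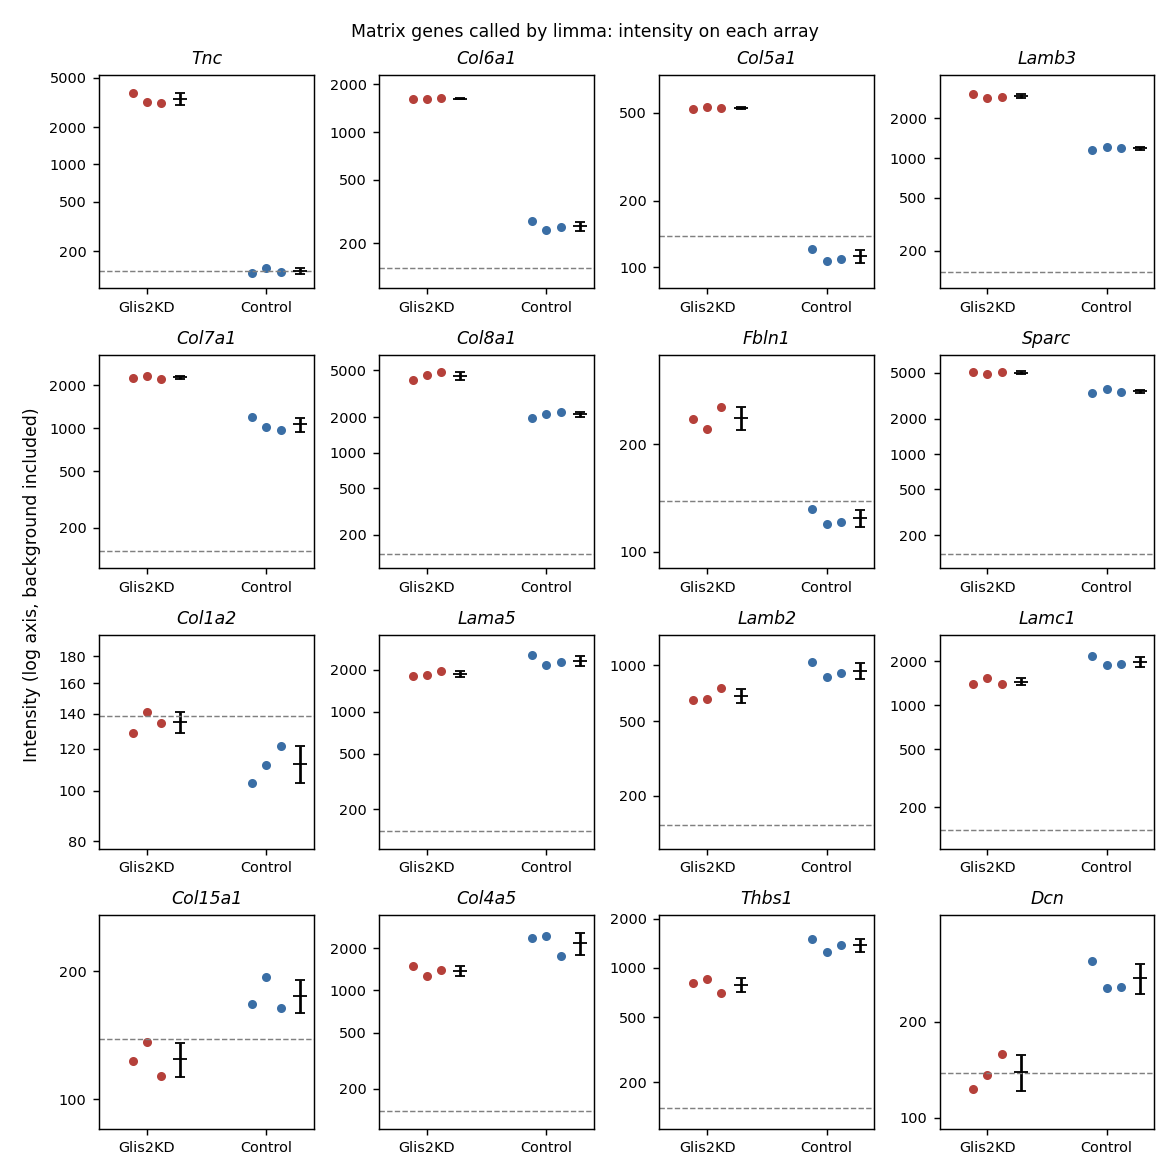
Intensity on a log axis (y axis, background included) of the 16 called members on each array, with the 3 Glis2KD arrays in red left of the 3 Control arrays in blue, black bars for mean ± SD of each group and a dashed line at the background limit of 139. In all 16 panels the groups are apart; the Control arrays of Col5a1, Fbln1 and Col1a2 and the Glis2KD arrays of Col15a1 lie under the limit.

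Fibronectin did not pass the test. Fn1, which assembles into the early fibrils on which collagen is laid down, had 16527, 14099 and 14836 in Glis2KD and 13983, 12510.3 and 14695 in Control. The groups overlapped, and the 95% interval of its log2 fold change ran from -0.050 to 0.33.

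Among elastic fibre and fibulin genes, Fbln1 rose. Fibulin 1 binds fibronectin, laminin and nidogen, and its gene had 235, 220.4 and 254 in Glis2KD and 132, 119.8 and 121 in Control, with every Control array under the limit. It was at least 1.70-fold higher (limma's adjusted p = 1.75e-08), and 2 of its 4 other probes passed the test in the same direction, at 0.50 and 0.49. Fbln2 had overlapping groups and a log2 fold change of 0.044 (interval -0.18 to 0.27). Elastin (Eln), Fbln5, Fbln7 and Efemp1 were not above background in their means. Of the cross-linking enzymes, Loxl1 had 195, 238 and 221 in Glis2KD and 247, 314 and 238 in Control, and its -0.28 (interval -0.50 to -0.064) had limma's adjusted p = 0.0586. Lox was under the limit on all 6 arrays.

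Decorin fell among the proteoglycans. Dcn, a small leucine-rich proteoglycan that coats collagen fibrils and binds TGF-beta, had 123, 136 and 158 in Glis2KD, with 1 array above the background limit, and 309.6, 256 and 258 in Control. The log2 fold change was -0.98 ± 0.10 (SE), with limma's adjusted p = 6.00e-08. Since the Glis2KD mean, 139, sat at the limit, the size of this drop depends on how background is treated, and after background subtraction it was -2.66. Its other probes had means of 109.8 to 132 and gave -0.33 to 0.024. Bgn had 141, 137 and 129.9 in Glis2KD and 163, 145 and 172 in Control without overlap, and limma's adjusted p = 0.0723. Lum, adjacent to Dcn on chromosome 10, and Vcan were not above background in their means. Ecm1, a secreted glycoprotein, had a log2 fold change of 0.083 (interval -0.094 to 0.26).

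For the 17 members above background that did not pass the test, the 95% intervals together ran from -0.50 to 0.43 on the log2 scale. These intervals hold for the brightest probe of each gene and do not show that the groups were alike. Other probes of Col18a1 (0.49) and of Col2a1 (0.30 and 0.28) passed the test.

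Whole stretches of a chromosome can differ between cell populations, so each called member was set beside the median of up to 50 neighbouring genes above background. That median lay between -0.18 and 0.30 for the 16. It exceeded 0.2 in size for 3 of them: Col6a1 at 0.30, Fbln1 at 0.29 and Dcn, which fell, at 0.22. Relative to neighbours all 16 still passed the test, with Col6a1 at 2.37, Fbln1 at 0.64 and Dcn at -1.20. In the adjacent pair with both genes above background and 1 called, Col4a5 was at -0.64 and Col4a6 at -0.23. Col6a2 beside Col6a1 and Lum beside Dcn were not above background, so their values near 0 are no measure of a difference within these pairs. What part the neighbourhood has in these values was not tested further.

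**Figure D4:**
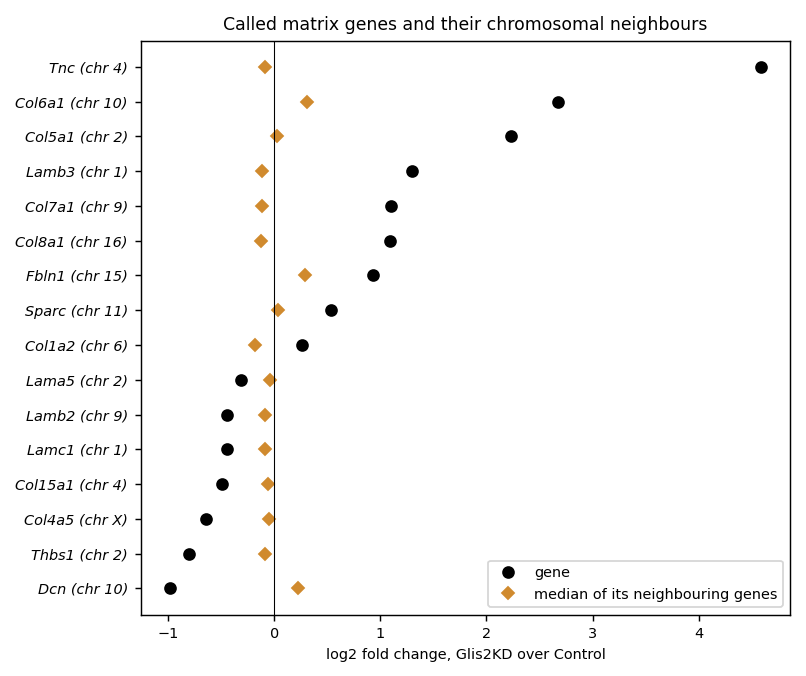
Log2 fold change, Glis2KD over Control (x axis), of each of the 16 called members (black circles) and the median of its neighbouring genes above background (orange diamonds), with the chromosome in parentheses. The neighbour medians stay between -0.18 and 0.30, whereas the members span -0.98 to 4.59.

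Of 26 genes measured for the folding and processing of collagen, 2 rose, 7 fell and 17 did not pass the test. That is 34.6% called beside 22.5% of all genes. Among the 19 above background 9 were called (47.4%), near the 43.6% of all such genes. P3h2 passed that filter only through Control, so these shares are a description only. The median log2 fold change was -0.071. Pcolce, an enhancer of procollagen C-propeptide removal, fell to 458 ± 66.5 in Glis2KD, against 1058 ± 135 in Control (SD, n = 3 arrays each), with a log2 fold change of -1.21 and limma's adjusted p = 5.47e-09. P3h4, of the collagen modification complex of the endoplasmic reticulum, rose by 0.84. P3h2, a prolyl 3-hydroxylase, was at least 1.41-fold lower, and Sec23a, a coat protein of the vesicles that export procollagen, had -0.48.

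Of 15 further genes for cross-linking and fibre assembly, 3 rose and 1 fell (26.7% called, near the 22.5% of all genes), with a median of 0.048. Ltbp4, a latent TGF-beta binding protein needed for elastic fibres, had 512 ± 3.11 in Glis2KD and 316 ± 24.5 in Control (SD, n = 3), a log2 fold change of 0.70 with limma's adjusted p = 1.20e-06. Ltbp3, of the same family, rose by 0.31. The transglutaminase Tgm1 had -0.30, and Tgm2, another transglutaminase, passed the test at 0.33, but its mean was not above background, its Control arrays and 1 Glis2KD array were under the limit, and the groups overlapped.

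Cell surface receptors for matrix other than integrins rose in 2 and fell in 6 of 15 cases, 53.3% called beside 22.5% of all genes. Of the 15, 11 were above background and 8 of these were called (72.7%), beside 43.6% of all genes in that class. Sdc2 passed that filter only through Control, so these shares are a description only. The syndecans, transmembrane heparan sulfate proteoglycans, went both ways. Sdc3 rose to 1157 ± 19.4 in Glis2KD, against 265 ± 26.7 in Control (SD, n = 3), with a log2 fold change of 2.13 and limma's adjusted p = 7.81e-15. Sdc1 had -0.89 and Sdc2 was at least 1.57-fold lower. The glypican Gpc1 fell to 6643 ± 304 in Glis2KD, against 12970 ± 1710.4 in Control, a log2 fold change of -0.96 with limma's adjusted p = 3.58e-08.

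Markers of other cell types that could supply matrix were mostly at background. Of 10 fibroblast and pericyte markers, 2 were above background in their mean. Of these Foxd1 rose, at least 1.20-fold, and S100a4 fell by 0.41 on the log2 scale. Pdgfra, Pdgfrb, Thy1 and Tcf21 were under the limit on all 6 arrays. The summed intensity of the 10 ran from 1244 to 1362 in Glis2KD and from 1267 to 1323 in Control, where 10 probes at the limit would sum to 1386. None of 8 endothelial markers was above background in its mean (sums of 993 to 1011 in Glis2KD and 946 to 993 in Control), and of 6 leukocyte markers 1 was, Csf1r, which rose by 0.44 (sums of 771 to 859 and 734 to 790.5). Of 3 podocyte markers 2 were above background, Synpo and Podxl, and rose by 0.42 and 0.39 (sums of 1577 to 1642 and 1207 to 1321). Of 8 markers of distal tubule or collecting duct 3 were above background and 0 were called. Their sums were 1949 to 2149 in Glis2KD and 2059 to 2206 in Control, where 8 probes at the limit would sum to 1108. The proximal tubule markers summed to 2108 to 2388 in Glis2KD and to 11288 to 12758 in Control, a gap that lay mostly in Aqp1, the tubule's water channel, at 325, 289 and 479.7 in Glis2KD and 10538, 9162 and 9579.7 in Control. Cdh16, a kidney cadherin, fell as well, to 137 ± 9.53 in Glis2KD, where 1 array passed the limit, against 365 ± 47.7 in Control (SD, n = 3 arrays each), with a log2 fold change of -1.41 and limma's adjusted p = 8.10e-11, and Pax8 had -0.21 without passing the test. Their part in the matrix differences was not tested.

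**Figure D5:**
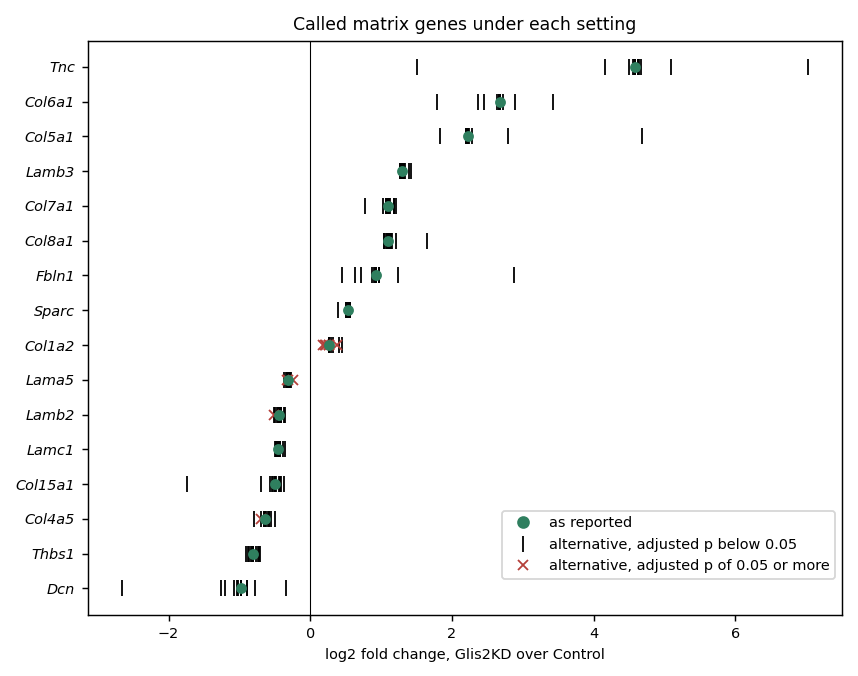
Log2 fold change, Glis2KD over Control (x axis), of each of the 16 called members as reported (green circles) and under each alternative in processing (black ticks where limma's adjusted p stayed below 0.05, red crosses where it did not). None of the 16 changed sign; crosses occur for Col1a2, Lama5, Lamb2 and Col4a5.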

How the data were processed

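RNA of 6 samples was hybridised with Cy3 label by a standard Illumina protocol, per the labels' protocols. In the deposited table each probe has a linear intensity for every array. Software and normalization: not given in the sources used here; the arrays already shared 1 distribution, with log2 medians within 0.00029, and background had not been subtracted (lowest value 85.4). From these values, 19057 genes were formed, each taken as the brightest of its probes by mean, named by the platform annotation and checked by Entrez identifier against RefSeq (GRCm38.p6), which changed 0 symbols. Log2 intensities, without further normalization, were compared with limma 3.58.1 in R 4.3.3 (lmFit, eBayes without trend, two-sided), with Benjamini-Hochberg adjustment over all genes at 0.05. The background limit is the most frequent intensity plus 3 SD of the values below it; intervals are at 95%. On simulated data for Glis2KD against Control over 19057 genes the test found 2.00% of those shifted by 0.25, 68.0% by 0.5 and 100% by 1 on the log2 scale, with 50 genes at each size. Far fewer genes were shifted there than the 22.5% called in the data, which makes the adjusted p stricter. These shares therefore do not measure the sensitivity of the reported test.

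Members, lists and tests were chosen with earlier results of these data known. Named with all values are called members changed by at least 0.5 on the log2 scale, and of each further list up to 4 called genes with the smallest p; members outside this rule (smaller changes and uncalled genes), Glis2 and cell type markers were named after their values were seen. Alternatives were a replicate block, quantile normalization, an offset of 50, background subtraction, normexp, filters on dim genes, eBayes with trend and robust, the mean of a gene's probes, changes relative to 50 neighbouring genes and leaving out each array. In background subtraction, values under 16 were set to 16. Whether the replicate numbers pair the arrays is not stated in the labels.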

Additional observations from a re-analysis of the deposited data

How the results depend on the processing

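Of the 16 called members, 12 kept their call and direction in each alternative that measured them; the others were Col1a2, Lama5, Lamb2 and Col4a5, with the values given above. With background subtracted, 2633 genes in all were called instead of 4291, and 4 members were lower instead of 7; the cause was not tested. Relative to neighbouring genes 13 members were lower, and 8 members were newly called, 5 of them not above background. Among these Col18a1 and Col6a2 turned to -0.27 and -0.26 (limma's adjusted p = 0.0253 and 0.0327), their neighbours having medians of 0.33 and 0.31. Leaving out 1 array at a time gave 3754 to 3984 called genes, with 8 to 9 members higher and 6 to 9 lower. Deviations of same-numbered arrays from their group means correlated at -0.094, -0.039 and -0.039, and those of other-numbered arrays at -0.020 to 0.065. With 3 arrays a group these values cannot decide whether replicate numbers mark pairs. With the replicate block 4130 genes were called, 9 members higher and 8 lower, the added one being Loxl1 (limma's adjusted p = 0.0370). Signal close to background limits all statements on the 42 members whose mean was not above it.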
